A study of Rattus norvegicus with 10 samples.

Results

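The cornified envelope is the layer of cross-linked protein that replaces the plasma membrane of a squamous cell at the end of its differentiation. The genes examined here were 10 genes of this system, chosen by name for their part in it, with earlier results of these data known. They were the precursors Sprr1a, Sprr1b, Sprr3, Ivl, Scel and Cnfn and the transglutaminases Tgm1 and Tgm3. Grouped with them were Krtdap and Sbsn, which encode secreted proteins of differentiating keratinocytes. A probe set was taken when its platform annotation held 1 of these symbols and no other. All 10 genes were on the array, by 11 of the 31042 probe sets tested, and they are 10 of the 14217 genes named there. No member was missing. Krtdap had 2 probe sets and the other members had 1 each.

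Expression was measured on arrays of the nasal transitional epithelium of male F344/N rats. The 5 DMPT animals received N,N-dimethyl-p-toluidine at 120 mg/kg/day in corn oil by gavage for 5 days, and the 5 vehicle animals received corn oil without DMPT for the same time. DMPT is an aromatic amine used to speed the curing of acrylic cements. Animals were 5 to 6 weeks old when the study began, and the epithelium was cut from sections by laser capture microdissection. Each array was a separately numbered animal. The labels say that animals shared cages without saying which, and the tests treat the arrays as independent.

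In stratified squamous epithelia, differentiating cells make small proline-rich proteins, involucrin and other precursors in the cytoplasm. Transglutaminases then join glutamine and lysine side chains of these proteins into an insoluble shell under the membrane. Transitional epithelium of the rodent nose lies between squamous and respiratory epithelium and does not normally cornify. Injured airway epithelium can turn squamous, and small proline-rich proteins are used as markers of that change in cultured human and animal airway cells.

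Values are log2 expression values normalised by RMA (robust multi-array average), and a difference of 1 is a doubling. Array medians lay between 8.21 and 8.35 and lower quartiles between 6.37 and 6.51. Probe sets with a mean under the lowest of these quartiles are called dim below, since a small real difference is hard to see there. Pairs of arrays correlated at r of 0.959 to 0.992 over all probe sets. An RNA length measure was taken from the control probe sets of beta-actin and GAPDH, as the log2 excess of their 3' over their 5' signal. It was 0.873 to 1.30 in DMPT and 1.17 to 1.50 in vehicle arrays (exact permutation test, two-sided, p = 0.143). Vehicle replicate 2 had an array weight of 0.205, against 0.81 to 1.66 for the others.

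Of the 11 member probe sets, 2 were higher after DMPT and none was lower, at an adjusted p of 0.05 in limma (Benjamini-Hochberg over all probe sets). Among all 31042 probe sets 5.37% were called higher and 5.74% lower. The counts of members at an unadjusted p under 0.05 were the same, 2 higher and 0 lower, and the exact permutation test also gave 2 and 0. The 2 probe sets were those of Sprr1a and Scel. Their DMPT and vehicle values did not overlap, whereas in the other 9 probe sets they did. Over all probe sets 5.82% had every DMPT value above every vehicle value. The median difference of the 11 probe sets was 0.24, beside -0.02 for all probe sets. In captured tissue, a change in the share of a cell type and a change in RNA per cell cannot be told apart.

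**Figure D1:**
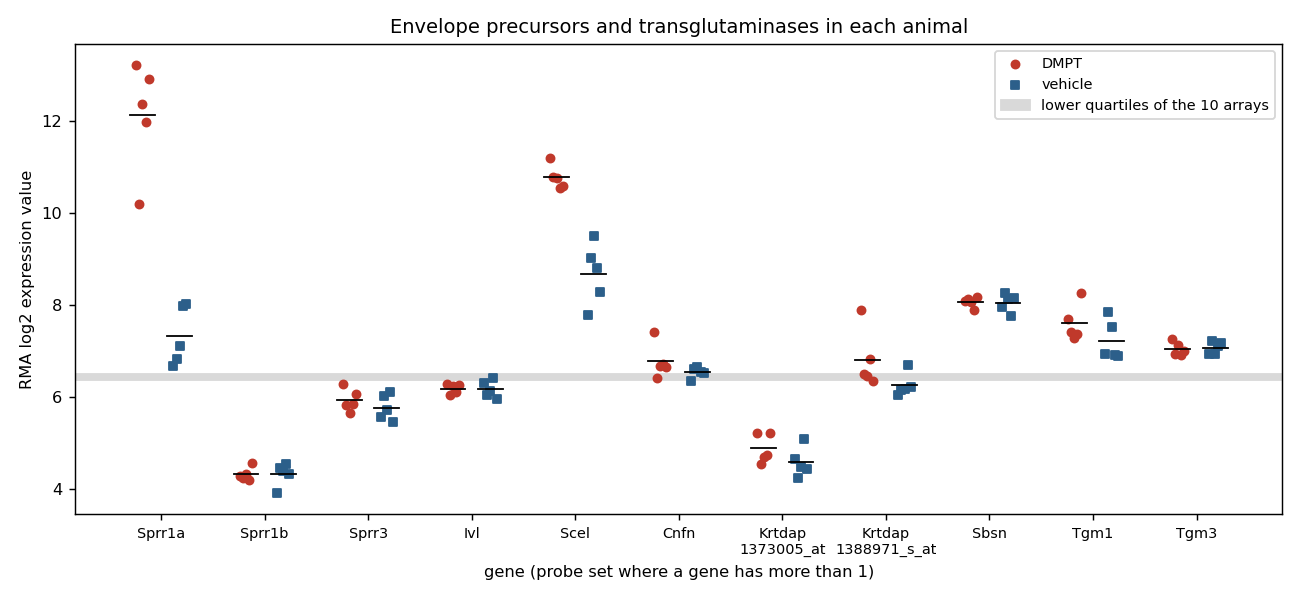
Log2 RMA value of each of the 11 member probe sets in each array, with DMPT arrays (5) left of vehicle arrays (5), points for arrays and bars for means. Sprr1a and Scel are the panels in which the groups separate, with DMPT means of 12.1 and 10.8 and vehicle means of 7.33 and 8.68.

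The stretches of DNA before the starts of Sprr1a and Scel, the 2 called genes, and of Sprr1b are printed here. Sprr1b is the closest relative of Sprr1a among the members. It was not called, but its probe set was dim, so a different response of Sprr1b is not shown. The stretches are RefSeq sequences of build GRCr8, 250 bases before to 50 bases after the annotated start, 5′ to 3′ on the gene's strand. Capitals mark matches to TGANTCA, where N is any base. This is looser than TGACTCA or TGAGTCA, the usual letters bound by AP-1. AP-1 is a dimer of Fos and Jun proteins known to act on human and mouse Sprr promoters. The Sprr1a stretch is chr2:180752576-180752875 on the minus strand, the Sprr1b stretch is chr2:180706306-180706605 on the minus strand, and the Scel stretch is chr15:86754382-86754681 on the plus strand.
Sprr1a: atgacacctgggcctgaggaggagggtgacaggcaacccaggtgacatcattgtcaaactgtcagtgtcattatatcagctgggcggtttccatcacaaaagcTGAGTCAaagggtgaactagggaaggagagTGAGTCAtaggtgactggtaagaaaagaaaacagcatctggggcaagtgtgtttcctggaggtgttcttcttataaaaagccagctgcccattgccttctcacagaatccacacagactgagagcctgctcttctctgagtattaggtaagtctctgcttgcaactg
Sprr1b: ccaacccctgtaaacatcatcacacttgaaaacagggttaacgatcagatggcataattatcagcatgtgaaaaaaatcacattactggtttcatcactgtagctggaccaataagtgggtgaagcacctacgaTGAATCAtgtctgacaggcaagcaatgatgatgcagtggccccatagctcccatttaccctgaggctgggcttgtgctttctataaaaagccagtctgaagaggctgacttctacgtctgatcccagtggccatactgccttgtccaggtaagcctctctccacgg
Scel: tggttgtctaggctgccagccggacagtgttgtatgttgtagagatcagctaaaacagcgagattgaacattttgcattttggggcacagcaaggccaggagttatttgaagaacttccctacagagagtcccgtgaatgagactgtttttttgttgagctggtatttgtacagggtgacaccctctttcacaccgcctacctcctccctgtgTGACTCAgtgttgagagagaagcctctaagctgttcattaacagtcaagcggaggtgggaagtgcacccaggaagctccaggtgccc

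Sprr1a held 2 matches, TGAGTCA with first bases 147 and 117 bases before the start. Sprr1b held TGAATCA at 116 bases before its start, a match to the loose pattern but not to the usual AP-1 letters. Scel held TGACTCA at 37 bases before its start. RefSeq gave such stretches for 9 of the 10 members, Sprr3 not among them, and 2 for Sbsn. TGANTCA, which reads as the same pattern on both strands, occurred in 5 of these 10 stretches and in 7.33% of 33469 rat promoters of the same length. The usual AP-1 letters alone were not counted over all promoters. The other members with a match were Krtdap and 1 of the Sbsn entries, and neither gene was called. TGACNNNGC, the core of the antioxidant response element, occurred in Sprr1a and in 1 Sbsn entry, searched on both strands, and in 12.1% of all promoters. The Sprr1a match overlaps the AP-1 match at 147 bases before the start. AACCNGTT, the letters bound by grainyhead-like factors, occurred in none of the 10 stretches and in 2.1% of all promoters. TATAAA occurred in Krtdap, Sprr1b, Sprr1a and Tgm3 and in 14.2% of all promoters, on both strands. These matches are descriptions of the letters and not evidence of binding.

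The small proline-rich proteins are flexible cross-bridges of the envelope, and Sprr1a was the member with the largest change. Its probe set 1371248_at read 13.22, 10.21, 12.37, 11.98 and 12.93 in DMPT replicates 1 to 5, and 6.68, 6.84, 7.12, 7.98 and 8.03 in vehicle replicates 1 to 5. Every DMPT array was above every vehicle array by more than 2 units, and DMPT replicate 2 was the lowest of its group. The means were 12.1 ± 1.18 in DMPT and 7.33 ± 0.64 in vehicle (SD, n = 5 each). The difference was 4.81 ± 0.50 (SE), with a 95% interval of 3.72 to 5.91 and a limma adjusted p of 0.000162. As a fold change this is 28.1, with an interval of 13.1 to 60.2. The exact permutation test gave p = 0.00794, the smallest that 5 arrays against 5 allow. The values varied widely within both groups. The SD within DMPT was larger than that of 99.9% of probe sets, and the SD within vehicle larger than that of 97.0%. Each array was a separate animal, so the size of response of single animals was not measured. With the RNA length measure as a covariate the difference was 4.02.

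Sprr1b and Sprr3 are paralogues of Sprr1a on the same chromosome, and neither was called. Sprr1b read 4.30, 4.24, 4.34, 4.21 and 4.58 in DMPT and 3.92, 4.47, 4.41, 4.56 and 4.34 in vehicle arrays. The groups overlapped, and the interval of the difference was -0.28 to 0.27 (adjusted p = 0.987 in limma). Sprr3 read 6.29, 5.83, 5.66, 5.86 and 6.08 in DMPT and 5.57, 6.03, 5.72, 6.11 and 5.46 in vehicle arrays. The DMPT and vehicle values were mixed, with an interval of -0.17 to 0.51 (adjusted p = 0.570 in limma). Its difference of 0.17 became 0.081 without DMPT replicate 1, 0.088 without vehicle replicate 5 and 0.085 under the RNA length covariate. Both probe sets were dim. The RefSeq table lists Sprr1b among older names of Sprr1a, so the names of this pair depend on the annotation, and binding of one paralogue's RNA to the other's probes was not tested.

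Involucrin (Ivl) is an early scaffold of the envelope, to which other precursors are joined. It read 6.29, 6.05, 6.24, 6.11 and 6.26 in DMPT and 6.31, 6.06, 6.15, 6.43 and 5.96 in vehicle arrays. The DMPT values lay within the span of the vehicle values and the probe set was dim. The interval of the difference was -0.22 to 0.24 (adjusted p = 0.977 in limma), and the differences of Sprr1a and Scel lay far outside it. Since the probe set was dim, a different response of Ivl is not shown.

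Sciellin (Scel) is a repeat-containing precursor found in stratified epithelia and cross-linked to the envelope. Its probe set 1385099_at read 11.21, 10.79, 10.76, 10.55 and 10.60 in DMPT and 7.79, 9.03, 9.50, 8.81 and 8.29 in vehicle arrays. DMPT arrays were close together and all above the highest vehicle array, vehicle replicate 3. The means were 10.8 ± 0.26 in DMPT and 8.68 ± 0.66 in vehicle (SD, n = 5 each). The difference was 2.10 ± 0.27 (SE), with a 95% interval of 1.50 to 2.69, a fold change of 4.28 (2.83 to 6.47) and a limma adjusted p of 0.000663. The exact permutation test gave p = 0.00794. For Scel the vehicle animals varied more than the DMPT animals, with an SD larger than that of 97.5% of probe sets. For Sprr1a the DMPT animals varied more, but its vehicle SD of 0.64 was close to the 0.66 of Scel. The spread of the 2 genes thus differed within DMPT, at 1.18 and 0.26.

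Cornifelin (Cnfn) is a small cysteine-rich envelope protein. It read 7.42, 6.43, 6.68, 6.74 and 6.67 in DMPT and 6.36, 6.62, 6.66, 6.55 and 6.54 in vehicle arrays. In DMPT, 4 of 5 arrays were above all vehicle arrays, but DMPT replicate 2 was among the lowest, and the difference of 0.24 ± 0.16 was not called (adjusted p = 0.402 in limma). Without DMPT replicate 1 it was 0.083, and with the RNA length measure as a covariate 0.13.

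Krtdap and Sbsn encode secreted proteins of differentiating keratinocytes and are near neighbours on chromosome 1. The brighter Krtdap probe set, 1388971_s_at, read 7.91, 6.52, 6.46, 6.84 and 6.36 in DMPT and 6.04, 6.16, 6.19, 6.70 and 6.23 in vehicle arrays. DMPT replicate 1 stood above the rest and the groups overlapped through vehicle replicate 4. The difference was 0.55 ± 0.26 (adjusted p = 0.223 in limma), and 0.28 without DMPT replicate 1. The dim probe set 1373005_at read 5.24, 4.56, 4.69, 4.74 and 5.22 in DMPT and 4.67, 4.25, 4.49, 5.09 and 4.45 in vehicle arrays, a difference of 0.30 ± 0.18 (adjusted p = 0.337 in limma). Its groups overlapped too, and the mean of both probe sets differed by 0.43 (exact permutation test, p = 0.0635). With the RNA length measure as a covariate, the differences of the brighter and dim probe sets were 0.35 and 0.02. Sbsn read 8.10, 8.13, 8.08, 7.89 and 8.19 in DMPT and 7.96, 8.27, 8.14, 7.77 and 8.15 in vehicle arrays, with an interval of -0.22 to 0.26 for the difference (adjusted p = 0.946 in limma).

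The enzymes gave no called change. Tgm1, the membrane-bound transglutaminase of keratinocytes, read 7.70, 7.42, 7.29, 7.39 and 8.27 in DMPT and 6.94, 7.86, 7.52, 6.93 and 6.89 in vehicle arrays. DMPT replicate 5 was the highest of all and vehicle replicate 2 the second highest, so that the groups overlapped. The difference was 0.38 ± 0.23, with an interval of -0.12 to 0.88 (adjusted p = 0.344 in limma), and ran from 0.22 to 0.54 when single arrays were left out. Tgm3, a soluble transglutaminase that joins precursors before they are fixed at the membrane, read 7.27, 6.94, 7.14, 6.93 and 7.01 in DMPT and 6.95, 7.22, 6.94, 7.11 and 7.17 in vehicle arrays. Its interval was -0.24 to 0.19 (adjusted p = 0.926 in limma).

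Over the 9 member probe sets that were not called, differences ran from -0.02 to 0.55, and no interval reached above 1.13 or below -0.28. Adjusted p ran from 0.223 to 0.987 in limma and the exact permutation p from 0.0714 to 0.976. A p that misses the threshold does not show that these genes kept their level. Of the 11 probe sets, 4 were dim and 9 lay under the median level of the arrays. DMPT replicate 1 was the highest DMPT array in 8 of the 11 probe sets, and replicate 5 in the other 3. No vehicle array held that place as often: vehicle replicate 4 was the highest of its group in 5. The same count was not made over all probe sets, so a trait of the members cannot be told from a trait of the array. DMPT replicate 1 also had the highest lower quartile of the DMPT arrays, 6.48.

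**Figure D2:**
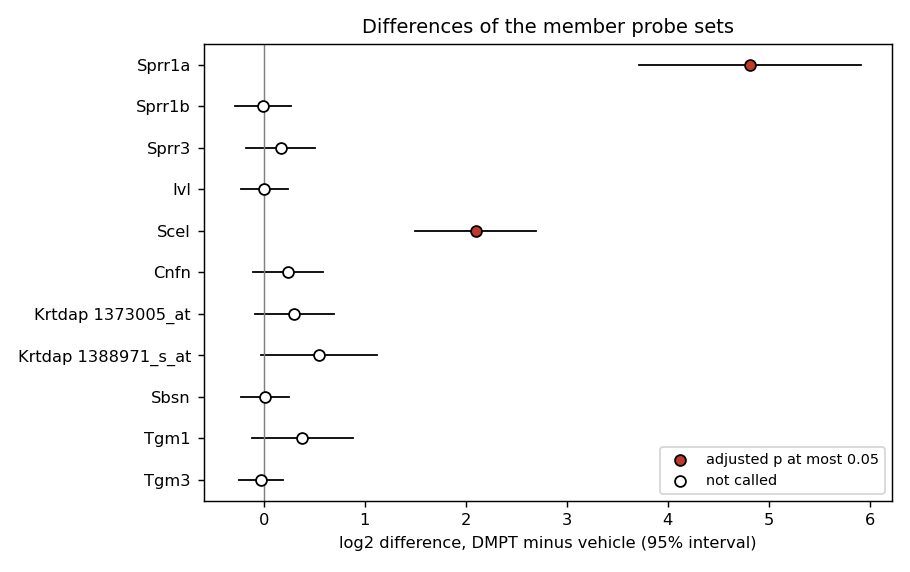
Difference in log2 value, DMPT minus vehicle, for each member probe set, with points for the limma estimate and bars for its 95% interval. The intervals of Sprr1a (3.72 to 5.91) and Scel (1.50 to 2.69) lie above 0, and those of the other 9 probe sets include it.

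Sprr1a, Sprr1b, Sprr3 and Ivl lie on chromosome 2 in the cluster of epidermal differentiation genes, Cnfn, Sbsn and Krtdap on chromosome 1, Tgm1 and Scel on chromosome 15, and Tgm3 on chromosome 3. The neighbours of the members were looked at after the member values were known. Between S100a9 and S100a11 on chromosome 2 the RefSeq table lists 58 protein-coding genes, of which 16 were measured. Of these 16, 2 were called higher, Sprr1a and Tchh, and 0 lower (limma, with 0 lower also at an unadjusted p under 0.05). Over all genes with 1 probe set each, 7.13% were called higher and 6.77% lower. Among the 16, 13 were dim and the median difference was 0.0019. Loricrin, a major envelope protein of epidermis, averaged 5.85 in DMPT and 5.73 in vehicle arrays (difference 0.12 ± 0.12, adjusted p = 0.610 in limma), in a dim probe set. Without single arrays its difference ran from 0.061 (without vehicle replicate 1) to 0.18 (without DMPT replicate 3). Sprr2d, a further small proline-rich gene, averaged 6.54 in DMPT and 6.22 in vehicle arrays (difference 0.32 ± 0.15, adjusted p = 0.216 in limma). Leaving out DMPT replicate 1 gave a difference of 0.18, and the RNA length covariate gave 0.14. Sprr1a lies between Sprr3 and Ivl in the order of measured genes, and neither of these neighbours was called. The span from Sbsn to Krtdap holds 4 genes, all measured, of which Gapdhs, a glycolytic enzyme of sperm, was the only one called, at 7.47 in DMPT and 6.94 in vehicle arrays (adjusted p = 0.0208 in limma), a call lost without DMPT replicate 3 or DMPT replicate 5 and with the RNA length measure as a covariate (adjusted p = 0.0633). Dmkn, a secreted keratinocyte protein with a dim probe set, averaged 6.29 in DMPT and 6.30 in vehicle arrays (adjusted p = 0.982 in limma).

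**Figure D3:**
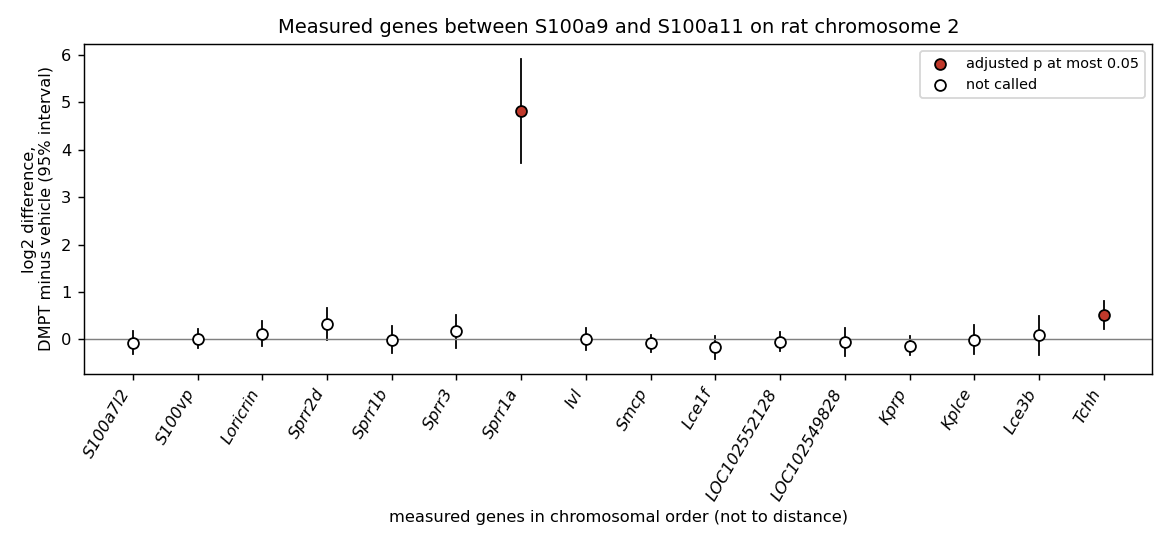
Difference in log2 value, DMPT minus vehicle, for the 16 measured genes between S100a9 and S100a11, in chromosome order, with bars for the limma 95% interval. Sprr1a stands at 4.81 and the next highest of the 16 genes is Tchh at 0.52.

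Other proteins of the envelope and of differentiating epithelia were taken from a list of 37 symbols, of which 19 were measured, with 1 probe set per gene. The list was not limited to cross-linked parts of the envelope, so its counts are not counts of envelope proteins alone. Of these 19, 8 were called higher and 0 lower (limma, 10 higher and 0 lower at an unadjusted p under 0.05), with a median difference of 0.30 beside -0.0052 over all genes. The shares called over all genes were 7.13% higher and 6.77% lower. Lypd3, a membrane-anchored protein of the Ly6 family, averaged 10.4 in DMPT and 9.06 in vehicle arrays, a rise of 1.37 ± 0.19 (adjusted p = 0.00110 in limma). Calml3 and Calml5 are calmodulin-like proteins of differentiating epithelia. Calml3 rose by 1.20 ± 0.28, to 11.9 in DMPT against 10.7 in vehicle arrays (adjusted p = 0.0191 in limma). Calml5 rose by 0.84 ± 0.18, to 9.28 in DMPT against 8.43 in vehicle arrays (adjusted p = 0.0123 in limma). Smaller rises were found for Ecm1, a secreted matrix protein, at 0.65 ± 0.13, for the protease inhibitor Cstb at 0.37 ± 0.086 and for Tchh, a keratin-binding protein of hair follicles, at 0.52 ± 0.13. Tchh was dim, at 3.99 in DMPT and 3.47 in vehicle arrays, and its groups overlapped. The other 2 that passed were S100a10 and Anxa1, calcium-linked membrane proteins, named after their values were seen, at 0.42 ± 0.11 and 0.30 ± 0.081. The calls of Tchh, S100a10 and Anxa1 were lost without any 1 of 5, 8 and 9 arrays. The count was 5 without DMPT replicate 1, DMPT replicate 2, DMPT replicate 5 or vehicle replicate 4, and 2, Lypd3 and Ecm1, with the RNA length measure as a covariate.

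Of the other transglutaminases, 5 of 7 listed were measured, and 1 was called lower and 0 higher (limma, 0 higher also at an unadjusted p under 0.05). This was Tgm2, the widely expressed tissue transglutaminase. Its brighter probe set, 1369943_at, read 13.32, 13.58, 13.38, 13.62 and 13.61 in DMPT and 14.11, 13.99, 13.98, 14.16 and 14.14 in vehicle arrays, and no values overlapped. It fell by 0.57 ± 0.093 (adjusted p = 0.00248 in limma). The second Tgm2 probe set, 1387776_at, averaged 11.7 in DMPT and 12.8 in vehicle arrays and fell by 1.08 ± 0.14 (adjusted p = 0.000794 in limma). Tgm2 was the 1 transglutaminase with a called change among those measured, members included. The share called lower over all genes was 6.77%.

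Of the proteases, inhibitors and lipid enzymes that act in cornification, 14 of 27 listed were measured, with 2 called higher and 0 lower (limma, 3 higher and 1 lower at an unadjusted p under 0.05). Beside this, 7.13% of all genes were called higher and 6.77% lower, so this small count says little about the list. Serpinb2, an inhibitor of plasminogen activators, averaged 5.59 ± 1.45 in DMPT and 3.17 ± 0.15 in vehicle arrays (SD, n = 5 each). The difference was 2.41 ± 0.54 (adjusted p = 0.0155 in limma), in a dim probe set. Klk8, a serine protease, averaged 8.49 in DMPT and 7.90 in vehicle arrays (difference 0.60 ± 0.15, adjusted p = 0.0270 in limma). Without vehicle replicate 2, 1 gene of this list was called lower. The Klk8 call was lost without any 1 of DMPT replicates 1, 2 or 4 or vehicle replicates 1 or 4.

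Regulators of terminal differentiation were measured for 24 of 29 listed symbols, and 8 were called higher and 0 lower (limma, 10 higher and 0 lower at an unadjusted p under 0.05), with a median difference of 0.23. Beside this, 7.13% of all genes were called higher and 6.77% lower. The count called higher was 6 to 7 whenever a single array was left out. Hopx, a homeodomain protein without DNA binding, averaged 12.1 in DMPT and 10.7 in vehicle arrays, a rise of 1.37 ± 0.12 (adjusted p = 6.34e-05 in limma). Klf4, a zinc-finger factor needed for the skin barrier in mice, averaged 9.61 in DMPT and 8.57 in vehicle arrays, a rise of 1.04 ± 0.13 (adjusted p = 0.000459 in limma). Cebpa rose by 0.96 ± 0.13 and Ppard by 0.67 ± 0.12. Of 5 Cebpa probe sets 3 were called. Grhl3, a grainyhead-like factor that acts on Tgm1 in mouse epidermis, averaged 9.08 in DMPT and 8.25 in vehicle arrays, a rise of 0.83 ± 0.17 (adjusted p = 0.00864 in limma). Fos rose by 0.72 ± 0.16 on its brighter probe set (adjusted p = 0.0162 in limma), while its other probe set differed by 0.074 and was not called. The remaining 2, Prdm1 and Fosl1, were named after their values were seen, and differed by 0.87 ± 0.24 and 0.67 ± 0.19, with calls that were lost without any 1 of 7 and of 8 arrays. Both probe sets were dim, their groups overlapped, and both calls were lost with the RNA length measure as a covariate (adjusted p = 0.118 and 0.214 in limma). The Fos and Jun relatives Jun, Junb, Jund, Fosb and Fosl2 were not called on the probe sets that stand for the genes, and 1 other Jund probe set was called lower (difference -0.40, adjusted p = 0.0475 in limma). Without vehicle replicate 2, or with array weights, 1 gene of this list was called lower. Tp63, the factor of basal squamous cells, was not called (difference 0.17, adjusted p = 0.735 in limma).

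**Figure D4:**
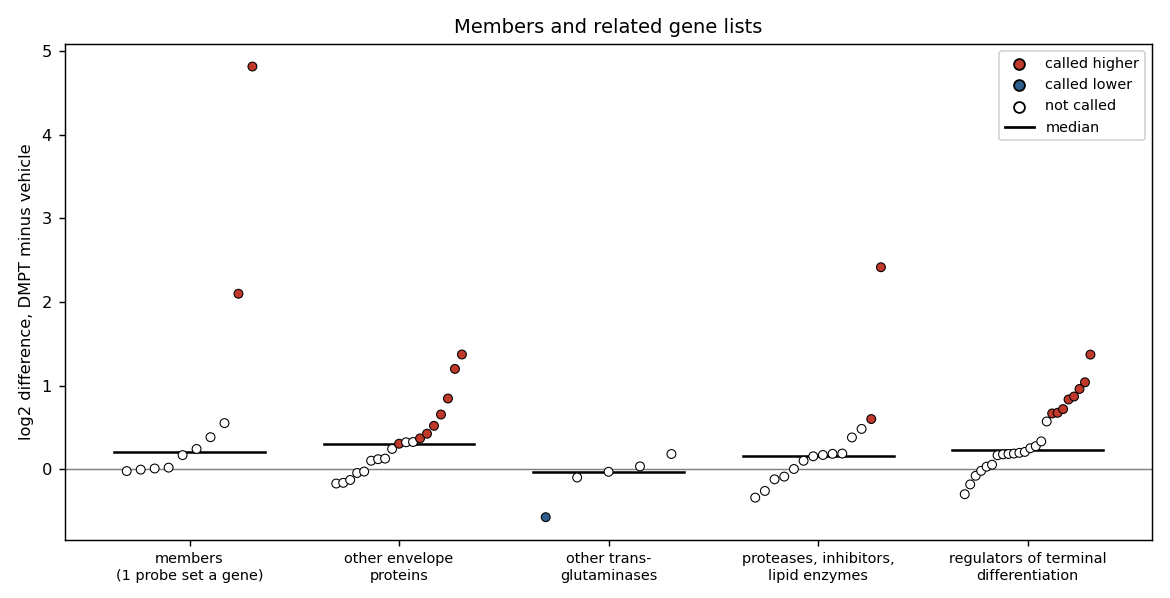
Difference in log2 value, DMPT minus vehicle, for each measured gene of the members and of the 4 lists of related genes, with 1 point per gene and a bar for the median of each list. Sprr1a at 4.81, Serpinb2 at 2.41 and Scel at 2.10 lie highest, and Tgm2 at -0.57 is the called fall.

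Markers of keratinized squamous epithelium were measured for 5 of 9 listed genes, and 0 were called in either direction (limma, 1 higher and 1 lower at an unadjusted p under 0.05). Their mean level per array was 6.32 to 6.65 in DMPT and 6.26 to 6.54 in vehicle arrays, and 3 of the 5 were dim. The labelled tissue was checked with 8 epithelial markers, whose mean level was 13.4 in all DMPT arrays and 13.1 to 13.3 in vehicle arrays. Among these, Krt5, a keratin of basal cells, rose by 0.60 (adjusted p = 0.00537 in limma), and Krt8, a keratin of simple epithelium, by 0.44 (adjusted p = 0.00831 in limma). Markers of other cells moved between the groups too, where 7.13% of all genes were called higher and 6.77% lower. The ciliated markers, 5 of 6 measured and 4 called lower, had a mean level of 9.18 to 10.95 in DMPT and 11.08 to 12.2 in vehicle arrays. The olfactory markers, 6 of 6 measured and 3 called lower, had a mean level of 7.84 to 8.43 in DMPT and 8.52 to 9.05 in vehicle arrays. The secretory markers, 7 of 7 measured and 3 called lower, had a mean level of 9.17 to 10.2 in DMPT and 9.47 to 10.4 in vehicle arrays. They did not all move the same way, and 3 of the 7 had a positive difference. The largest of these was Muc5ac at 1.29, which was not called (adjusted p = 0.0711 in limma). The endothelial markers, 4 of 5 measured and 2 called higher, had a mean level of 7.07 to 7.98 in DMPT and 6.19 to 7.00 in vehicle arrays. The leukocyte markers, 6 of 6 measured with 2 called higher and 1 lower, had a mean level of 9.10 to 9.38 in DMPT and 8.95 to 9.21 in vehicle arrays. No stromal or muscle marker was called (limma, with 0 of 6 stromal and 1 of 4 muscle markers at an unadjusted p under 0.05). The stromal markers had a mean level of 9.92 to 11.05 in DMPT and 10.09 to 11.01 in vehicle arrays. For the muscle markers it was 7.82 to 8.26 and 7.86 to 8.12. Among them, Col1a1 averaged 13.2 in DMPT and 13.3 in vehicle arrays, and Myh1 13.5 and 13.6. These 2 were as bright as the epithelial markers, whose level thus does not show that epithelium alone was captured. The part of the marker shifts between the groups in the member results was not tested.

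Likeness to Sprr1a was measured as the root mean square difference in log2 value over the 10 arrays, with each gene centred on its vehicle mean. This measure picks genes with a difference of similar size. The 6 closest genes, members aside, were C3h15orf48 at 0.872, Slc7a11 at 1.05, Akr7a3 at 1.14, Scin at 1.21, Cyp3a9 at 1.22 and Maff at 1.36. C3h15orf48 averaged 11.2 in DMPT and 6.90 in vehicle arrays, a difference of 4.34. The differences of the other 5 ran from 3.51 to 4.12. Their SD within DMPT was 0.264 to 0.434, and that of C3h15orf48 was 0.556, beside 1.18 for Sprr1a. Sprr1a was less even across the DMPT animals than any of the 6. Its SD within DMPT exceeded that of 99.9% of all probe sets, so this does not set it apart from these 6 in particular.

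**Figure D5:**
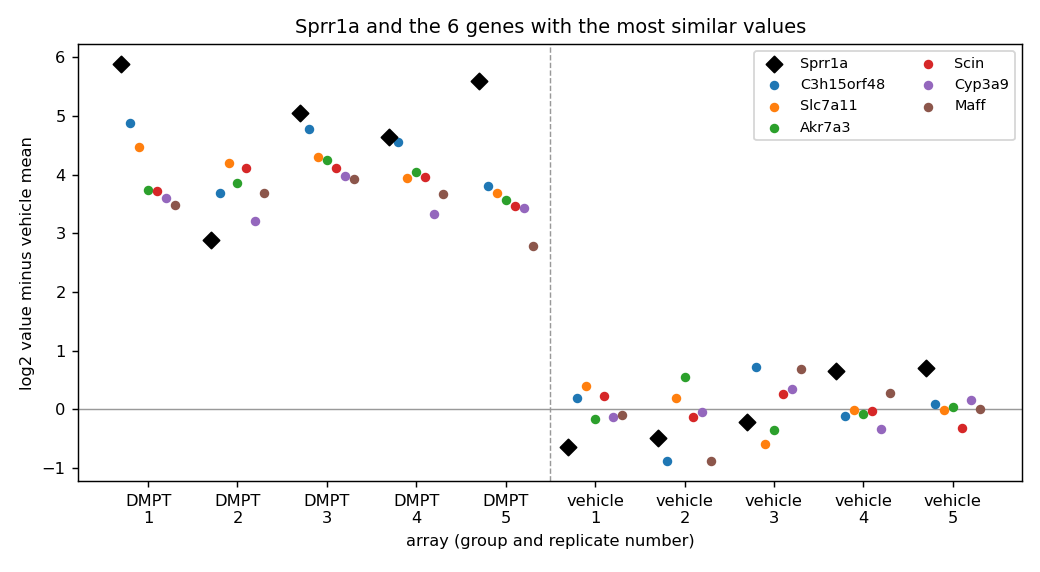
Log2 value minus the vehicle mean of the same gene, for Sprr1a and the 6 genes closest to it, in each DMPT array (left) and each vehicle array (right), with points offset sideways by gene. Sprr1a is the highest of these genes in DMPT replicates 1, 3, 4 and 5 and the lowest in DMPT replicate 2.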

How the data were processed

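RNA from laser-captured epithelium was amplified, biotin-labelled and hybridised to rat expression arrays, per the labels' protocols. The values deposited for each probe set are on the log2 scale and were made by the authors with RMA, per the submitters' processing notes. RMA sets all arrays to a like distribution, so levels are relative. The sources used here give neither the RMA version nor the genome build. Precision is limited by the number of arrays, which have no sequencing depth.

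Of 31099 probe sets, 57 controls were set aside and 20826 of the remaining 31042 had 1 symbol. No filter was applied. The test was limma's moderated one (lmFit, then eBayes; version 3.58.1, R 4.3.3), two-sided, with Benjamini-Hochberg adjustment over 31042 probe sets and a threshold of 0.05. Values after ± are standard errors unless given as SD. The exact permutation test used Python 3.11.15 with scipy 1.17.1. The fit was tested on simulated data. The authors' ORIOGEN test was not run.

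For counts by gene, the probe set with the highest mean stood for the gene. Named were all member probe sets, up to 6 called genes of each list of related genes by smallest p, and the 6 genes most like Sprr1a. S100a10, Anxa1, Prdm1, Fosl1, Krt5, Krt8, Loricrin, Sprr2d, Gapdhs, Dmkn, Tp63 and the genes set beside Scel were named after their values were seen. Jun, Junb, Jund, Fosb, Fosl2, Muc5ac, Col1a1 and Myh1 were also named outside this rule, with their values known. Members and lists were chosen with earlier results of these data known. Alternatives were another scaling, array weights, the RNA length covariate, a filter on dim probe sets, another variance prior and leaving out single arrays. Promoters are RefSeq's, build GRCr8.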

Additional observations from a re-analysis of the deposited data

Results flagged for a closer look

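Of 92 groups of 5 arrays examined, 3 held an array far from the others by Dixon's criterion, which chance gives in about 1 in 20 groups, and none of the 22 member groups did. Grhl3 in DMPT replicate 1 was 9.75, with the nearest other DMPT array at 8.98 and the lowest at 8.77. Anxa1 in vehicle replicate 2 was 13.6, with the other vehicle arrays from 13.7 to 13.8. Krt5 in vehicle replicate 1 was 12.9, with the other vehicle arrays from 12.4 to 12.6.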

How the results depend on the processing

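Sprr1a and Scel were called higher, and no member lower, under all 17 alternative fits run. Without single arrays the difference of Sprr1a was 4.54 to 5.30 and that of Scel 1.87 to 2.30. The count of all probe sets called was 3451, and became 2279 with the RNA length measure as a covariate and 2159 to 4016 without single arrays (the lowest without DMPT replicate 3, the highest without vehicle replicate 2). Some uncalled differences near 0 changed sign. With median centring, quantile normalization and array weights, Sprr1b was 0.034, 0.020 and 0.012, Tgm3 was 0.017, 0.011 and 0.0065, and Dmkn was 0.029, 0.0063 and 0.11. Dmkn was 0.045 with the RNA length covariate. Array weights gave -0.0081 for Ivl, and the RNA length covariate gave -0.055. Without single arrays Sprr1b ran from -0.11 to 0.050, Ivl from -0.047 to 0.070, Tgm3 from -0.076 to 0.012, Sbsn from -0.054 to 0.071 and Dmkn from -0.10 to 0.093. The cause was not tested. Leaving out the lowest 25% of probe sets by mean gave no value for Ivl, Sprr1b, Sprr3 or Krtdap 1373005_at, which limits what dim signal can show.

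Whether the replicate numbers pair the animals was not settled. Deviations of same-numbered arrays correlated at -0.0672 to 0.234, and 2 of 5 numbers matched best with themselves. These values were not set against what unpaired arrays would give, so they cannot exclude pairing. With the replicate block 3370 probe sets were called, Sprr1a had an adjusted p of 0.000574 and Scel of 0.00337 in limma, and the calls of S100a10, Anxa1, Fosl1 and Gapdhs were lost.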

Other observations

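The genes closest to Scel over the 10 arrays, by the same root mean square difference, were Gprc5a at 0.295, Plet1 at 0.423 and Ripply3 at 0.442. Gprc5a, an orphan receptor of airway epithelium, averaged 11.1 in DMPT and 9.03 in vehicle arrays (difference 2.10 ± 0.20, SE, n = 5 each). Plet1, a surface protein of epithelial progenitors in mice, averaged 13.6 in DMPT and 11.3 in vehicle arrays. Ripply3, a transcriptional corepressor, averaged 6.50 in DMPT and 4.80 in vehicle arrays, in a dim probe set.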
